A study of Rattus norvegicus with 24 samples.

Results

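Dopamine neuron synthesis and transport genes were followed in punches of the ventral tegmental area (VTA), the midbrain area that holds dopamine cell bodies, and of the nucleus accumbens (NAc), the striatal area their axons reach. The set was 6 of the 32552 genes of the count tables, picked by Ensembl ID. In the coordinates of the tables it held Th (ENSRNOG00000020410, chromosome 1, 216073031 to 216080287), Slc6a3 (ENSRNOG00000017302, chromosome 1, 32321580 to 32363983) and Slc18a2 (ENSRNOG00000008890, chromosome 1, 280423079 to 280457148). It further held Ddc (ENSRNOG00000004327, chromosome 14, 91905919 to 91996774), Nr4a2 (ENSRNOG00000005600, chromosome 3, 43111240 to 43119159) and ENSRNOG00000012283 (chromosome 16, 68860018 to 68866718), which no table used here pairs with a symbol. The choice rested on earlier results of these data, in which these genes were high in the VTA, so every difference between regions below is a description with no test. For the 5 with a symbol, chromosome and strand were those that RefSeq gives for it, and no other feature of the tables shared an exon base with the 6.

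RNA came from 14 Sprague Dawley rats of both sexes, given fentanyl, an opioid agonist, or saline, in a study of fentanyl-or-food choice in opioid withdrawal by its title. The libraries were 3 of fentanyl females, 2 of saline females, 3 of fentanyl males and 2 of saline males from the VTA. The NAc libraries were 4 of fentanyl females, 3 of saline females, 4 of fentanyl males and 3 of saline males. The animal codes gave 10 rats with both regions, and each library is 1 rat, named here by the number in its code. All rats were killed at the time of a final choice session that was not held, and the tissue was a bilateral punch of a whole brain slice, so each library pools every cell type of the punch. VTA libraries held 4.49 M to 6.3 M counts in all and NAc libraries 3.46 M to 5.01 M. Levels are CPM, a gene's counts relative to its library's total after scaling by TMM, edgeR's trimmed mean, and comparisons between genes use CPM per kilobase (kb) of exon length.

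Dopamine is made from tyrosine in a pair of steps. Tyrosine hydroxylase (Th) makes L-DOPA and limits the rate, and aromatic amino acid decarboxylase (Ddc) turns L-DOPA into dopamine. The vesicular monoamine transporter (Slc18a2) loads it into synaptic vesicles, the dopamine transporter (Slc6a3) takes it back up after release, and the nuclear receptor Nurr1 (Nr4a2) drives these genes in midbrain dopamine neurons and helps maintain those neurons. Ddc and Slc18a2 also serve serotonin and noradrenaline neurons, whereas Slc6a3 is the most specific of the set to dopamine neurons.

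RefSeq promoter sequences (GRCr8, 250 bases before to 50 after the start) were matched by symbol for 5 of the 6 genes, 7 promoters in all, 3 of them of Ddc. Exact matches on both strands were searched for the cyclic AMP response element, tgacgtca, and for the Nurr1 response element, aaaggtca, and no match of one overlaps a match of the other here. The first stood in the promoters of Th and Slc18a2, against 1.83% of all 33469 promoters of the table, and the other in 1 Ddc promoter, against 1.43%. The 3 promoters with a match are printed, and capitals mark the match, which is on the opposite strand in Ddc. Levels of their genes and of Slc6a3, which has no match, varied together from punch to punch, as described further on. Whether the matches bear on these levels was not tested. The match begins at base -69 from the start in Th (chr1:207508169-207508468, minus strand), at -52 in Slc18a2 (chr1:268399771-268400070, plus strand) and at -73 in Ddc (chr14:90682734-90683033, minus strand). No match was found in these windows of Slc6a3 and Nr4a2 or in the other Ddc promoters. These are matches of letters only, and their coordinates are those of GRCr8, while the build of the count tables is not given in the sources used here.
Th promoter: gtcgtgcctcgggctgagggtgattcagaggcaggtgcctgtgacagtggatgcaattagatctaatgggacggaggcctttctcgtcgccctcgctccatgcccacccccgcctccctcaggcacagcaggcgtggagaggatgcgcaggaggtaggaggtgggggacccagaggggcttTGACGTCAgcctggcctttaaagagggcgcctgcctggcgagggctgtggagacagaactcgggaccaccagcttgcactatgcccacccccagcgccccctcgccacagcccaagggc
Slc18a2 promoter: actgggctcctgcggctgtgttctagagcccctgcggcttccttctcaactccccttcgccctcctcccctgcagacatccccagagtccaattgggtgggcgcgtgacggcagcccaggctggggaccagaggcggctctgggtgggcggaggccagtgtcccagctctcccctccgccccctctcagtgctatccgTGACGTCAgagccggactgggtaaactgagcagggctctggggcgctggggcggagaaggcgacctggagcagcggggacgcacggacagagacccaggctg
Ddc promoter 1: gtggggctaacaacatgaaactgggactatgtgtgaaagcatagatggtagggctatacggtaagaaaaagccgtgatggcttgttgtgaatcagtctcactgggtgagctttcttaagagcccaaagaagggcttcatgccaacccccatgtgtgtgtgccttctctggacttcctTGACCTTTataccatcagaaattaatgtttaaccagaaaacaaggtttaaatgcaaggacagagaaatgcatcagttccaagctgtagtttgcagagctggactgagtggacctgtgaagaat

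The 6 genes stood near the top of the genes that were higher in the VTA. Within the 10 rats with both regions and with rat as a block in edgeR, ENSRNOG00000012283 ranked 1 of 14795 genes by log2 fold change of VTA over NAc, at 10.40, and Slc6a3 ranked 2, at 9.92. Th ranked 4, at 8.61. Ddc, Nr4a2 and Slc18a2 followed at 5.19, 4.66 and 4.54, ranks 53, 82 and 87. All 6 were at least 16-fold higher in the VTA, as were 117 of the 14795 genes (0.791%), and since the genes were chosen on this contrast nothing is read from that count. Counts were also summed over all 10 VTA and all 14 NAc libraries, a wider set than these rats, and scaled to the libraries' totals. By these sums Th was 484-fold higher in the VTA (95% counting interval 406 to 583) and Slc6a3 703-fold (570 to 878). The intervals leave out the spread between rats. Slc18a2 was 31.3-fold higher in the VTA (29.9 to 32.8) and Ddc 42.1-fold (38.1 to 46.7).

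**Figure D1:**
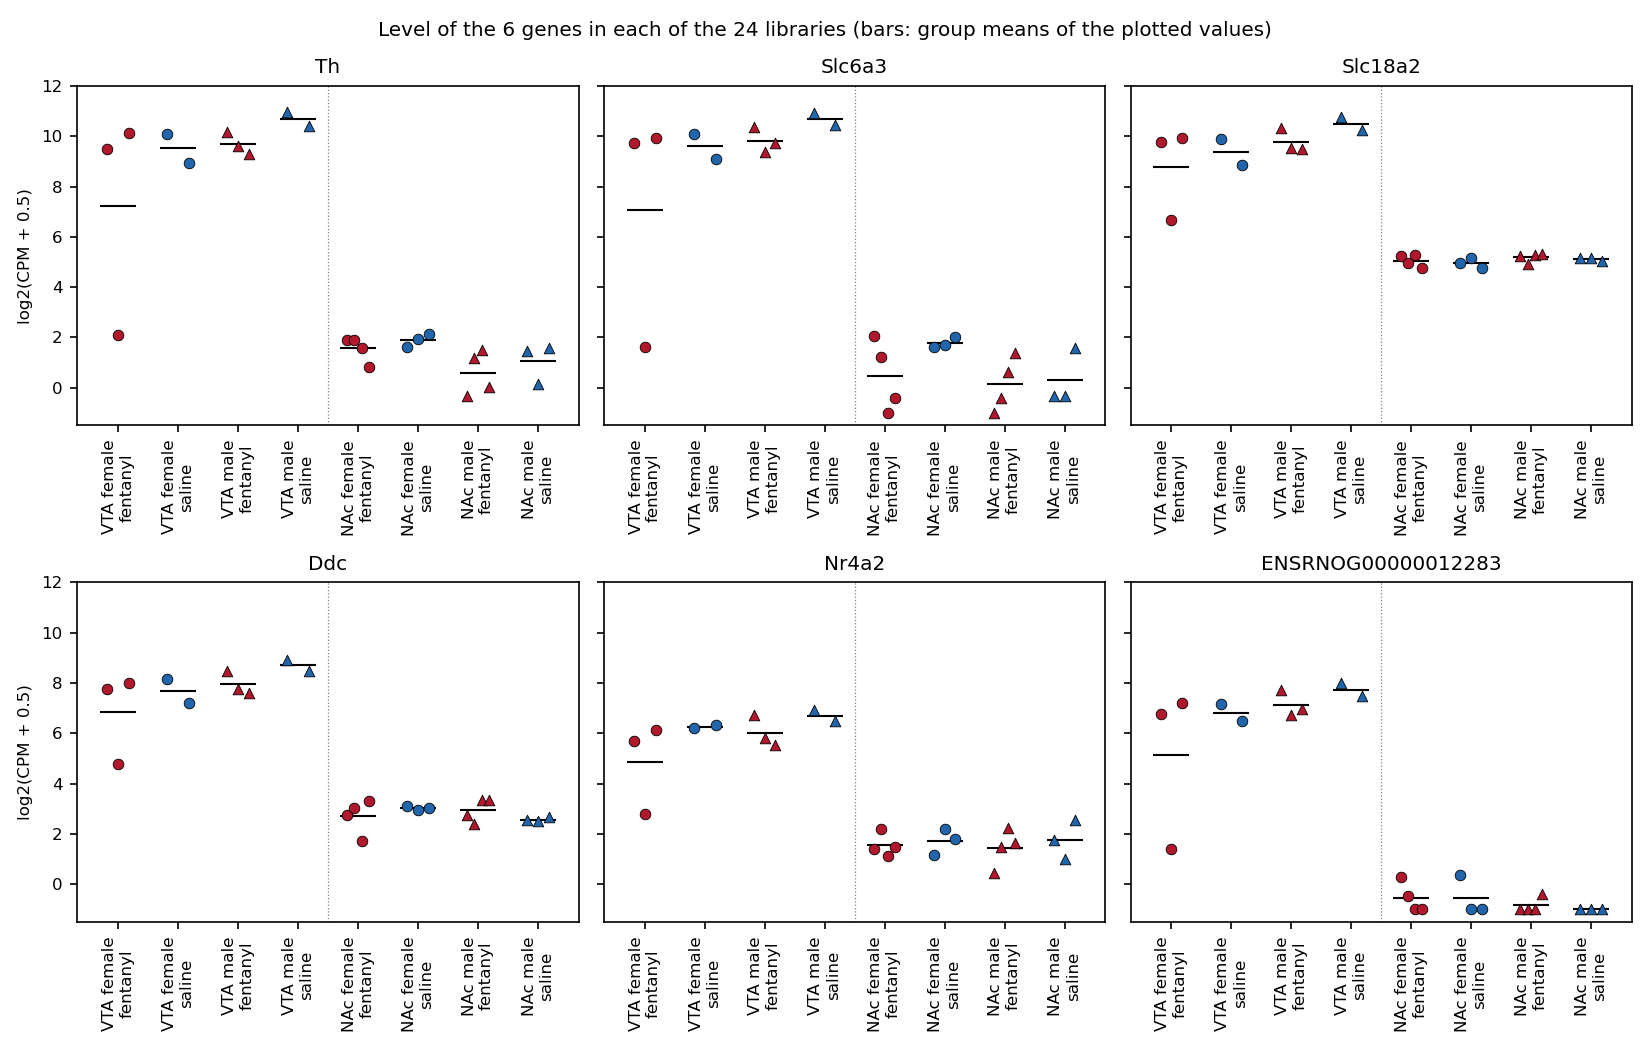
Level of each gene in each of the 24 libraries as log2(CPM + 0.5), with VTA groups left of the dotted line and NAc groups right of it; red is fentanyl, blue is saline, circles are females, triangles are males and bars are means of the plotted values. In the fentanyl female group of the VTA, 1 library lies at NAc level for Th (3.72 CPM) and Slc6a3 (2.54 CPM).

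Per kb of exon, Th was the most abundant of the set in the VTA. Leaving out 1 library described next, it averaged 588 ± 258 CPM per kb (SD, n = 9 libraries). Slc18a2 followed at 341 ± 128 and Slc6a3 at 312 ± 125 CPM per kb, a pair whose means differed by less than the spread between libraries. ENSRNOG00000012283 averaged 86.3 ± 31.1, Ddc 53.8 ± 20.2 and Nr4a2, the transcription factor, 22.7 ± 7.36 CPM per kb. The ranges of neighbours in this order overlapped, except that Slc6a3 (160 to 569) lay wholly above ENSRNOG00000012283 (50.6 to 147 CPM per kb). In each of these 9 libraries Th lay above Slc18a2, ENSRNOG00000012283 above Ddc, and Ddc above Nr4a2. Slc18a2 lay above Slc6a3 in all of them but female saline replicate 2, at 159.0 against 159.9 CPM per kb.

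VTA library replicate 2 of the fentanyl females stood apart from the other 9 VTA libraries in every gene of the set. It held 19 counts of Th and 13 of Slc6a3, where the other 9 held 2893 to 12728 counts of Th. Its level was 132-fold below the lowest other VTA library for Th and 215-fold below it for Slc6a3. For ENSRNOG00000012283, with 11 counts, it was 41.3-fold below. Nr4a2, with 33 counts, was 7.10-fold below, Ddc, with 138 counts, 5.42-fold and Slc18a2, with 512 counts, 4.62-fold. All 6 genes were among the 52 of 11268 genes with at least 5 CPM that lay at least 4-fold below every other VTA library, and the other libraries had 0 to 2 such genes each.

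The drop was uneven over the set. Th (3.72 CPM) and Slc6a3 (2.54 CPM) lay within the NAc range of 0.284 to 3.92 and 0 to 3.61 CPM, whereas Slc18a2 (100 CPM) lay 2.54-fold and Ddc (27.0 CPM) 2.75-fold above the highest NAc library. Slc18a2 and Ddc kept their ratio to each other: 3.71 counts of Slc18a2 stood against 1 of Ddc in this library and 3.17 to 3.94 in the other 9. For Slc18a2 and Nr4a2 the ratio was 15.5, within the 5.80 to 16.7 of the others. In contrast, 0.0371 counts of Th stood against 1 of Slc18a2 here, and 0.834 to 1.17 in the others.

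**Figure D2:**
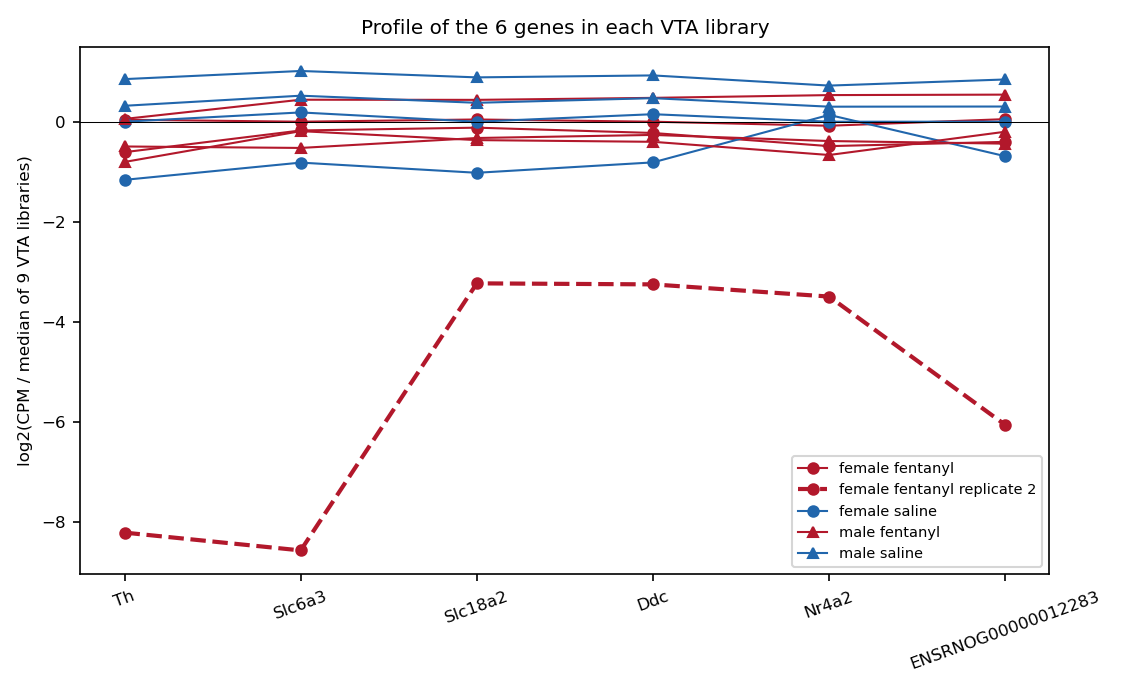
Profile of the 6 genes in each VTA library, as log2 of its CPM over the median of the 9 other libraries than female fentanyl replicate 2, which is dashed; red is fentanyl, blue is saline, circles are females and triangles are males. Of the 9 solid lines, 8 run nearly level, that of female saline replicate 2 rises at Nr4a2, and the dashed one falls furthest at Th and Slc6a3.

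The library was otherwise a VTA library by its profile. Over 10934 genes its log2 CPM correlated at r = 0.952 with the mean of the other VTA libraries and at 0.810 with the mean of the NAc libraries of other rats, where the other VTA libraries had 0.973 to 0.988 with the VTA mean. Genes at least 4-fold higher in one region in the other rats put each punch on a scale from 0, the NAc mean, to 1, the VTA mean. The 222 genes that were higher in the VTA, the 6 left out, had a median position of 0.894 in this library, and the 360 genes that were higher in the NAc one of 1.04. Female saline replicate 2 lay lower on both, at 0.880 and 0.870, and the rest at 0.975 to 1.02 and 0.942 to 1.04. That punch, 1 of the 2 saline females of the VTA comparisons below, also had the highest correlation with the NAc mean, 0.847. In female fentanyl replicate 2 the 6 dopamine genes had a median position of 0.279, with a range of 0.104 to 0.379. Their medians were 0.889 to 1.16 in the other 9 libraries. Of the VTA genes, 23.9% lay nearer to the NAc mean in this library and 0% to 6.31% in the others. These libraries are bulk tissue, so fewer dopamine cells in the punch and less of these RNAs per cell cannot be told apart. The VTA results below are given with and without this library.

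**Figure D3:**
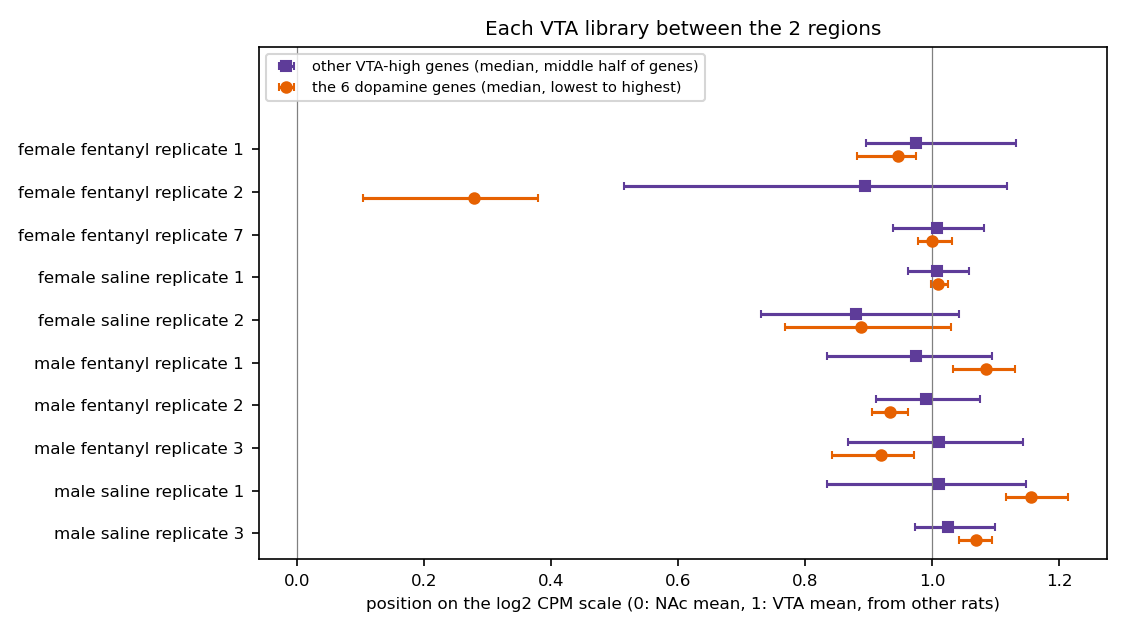
Position of each VTA library between the NAc mean (0) and the VTA mean (1) of the other rats on the log2 CPM scale, for VTA-high genes other than the 6 (squares, with bars over the middle 50% of genes) and for the 6 dopamine genes (circles, with bars from the lowest to the highest). Female fentanyl replicate 2 has its squares at 0.894 and its circles at 0.279.

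The amount of dopamine transcripts also differed among the other 9 punches. Summed over the 6 genes, fentanyl females had 2819, 142 and 3536 CPM (replicates 1, 2 and 7) and saline females 3635 and 1816 CPM. Fentanyl males had 4391, 2575 and 2568 CPM and saline males 6528 and 4594 CPM. The male saline libraries were the highest 2 of the 10, and the groups otherwise overlapped. NAc libraries had 38.5 to 55.4 CPM. Over the 9 punches the level of single genes spanned 4.04-fold for Th, 3.56-fold for Slc6a3, 3.75-fold for Slc18a2, 3.33-fold for Ddc, 2.90-fold for ENSRNOG00000012283 and 2.61-fold for Nr4a2.

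Within a punch the synthesis and transport genes kept their proportions much more closely than their levels. The count ratio of Slc18a2 to Ddc spanned 1.24-fold over the 9 libraries, from 3.17 to 3.94, and that of Slc6a3 to Slc18a2 1.32-fold, from 0.894 to 1.18. Th to Slc6a3 had the widest ratio among the 5 genes other than Nr4a2, 0.745 to 1.17, a span of 1.57-fold. Nr4a2 was less tied to them: the ratio of Th to Nr4a2 was 6.16 in saline female replicate 2 and 10.9 to 16.6 in the other 8. In that library Nr4a2 stood at 79.9 CPM, above saline female replicate 1 at 72.7 CPM, while Th, Slc6a3, Slc18a2 and Ddc were at their lowest of the 9.

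Levels were also correlated over the 9 libraries as log2 CPM, with 1 punch per rat. The test had been planned on all 10 VTA libraries, and leaving 1 out was added after the data were seen. Pearson's r was 0.923 to 0.984 for the 10 pairs without Nr4a2 and 0.619 to 0.749 for the 5 pairs with it. Spearman's rho was 0.917 to 0.983 without Nr4a2 and 0.667 to 0.733 with it. By the exact two-sided permutation test over 362880 pairings with Benjamini-Hochberg adjustment over the 15 pairs, 14 pairs passed 0.05 by r (n = 9) and 13 by rho. The pair Slc18a2 and Nr4a2 missed by r (r = 0.62, exact adjusted p = 0.0727), and Nr4a2 with Slc6a3 and with ENSRNOG00000012283 missed by rho (exact adjusted p = 0.0539 and 0.0589). Without the 2 libraries farthest from the median of the first gene of a pair, r was 0.797 to 0.971 in the pairs without Nr4a2 and 0.679 to 0.981 in the pairs with it. In 4 of those 5 pairs r was then higher than over the 9 libraries: 0.901 for Nr4a2 with Th, 0.863 with Slc6a3, 0.954 with Slc18a2 and 0.981 with Ddc, so the lower values of Nr4a2 rest on few libraries. As deviations from the means of the 4 groups, r over the 9 libraries was 0.871 to 0.995 without Nr4a2 and 0.564 to 0.743 with it. Deviations within a group of 2 libraries are equal and opposite, so they are not independent and no test is read from them. Over all 10 libraries these deviations had r of 0.972 to 0.999 without Nr4a2 and 0.9495 to 0.969 with it. With all 10 libraries, as planned, r was 0.931 to 0.997 over the 15 pairs. All 15 then passed 0.05 by r and by rho (permutation test with 100000 resamples, Benjamini-Hochberg), with the library that stands apart among them. Without the 2 farthest libraries of those 10, r was 0.870 to 0.985 in the pairs without Nr4a2 and 0.493 to 0.958 in the pairs with it.

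In the VTA no gene of the set differed between fentanyl and saline rats past an adjusted p of 0.05. In males all 6 had negative log2 fold changes, from -0.98 for Th to -0.57 for ENSRNOG00000012283; in females all 6 were negative as well, and 5 of them, all but Nr4a2, turned positive without the library that stands apart. Without saline female replicate 1 in its place, Th (0.35), Slc6a3 (0.16), Slc18a2 (0.49) and Ddc (0.22) were positive too. The count was 0 of 6 in males, in females and as a mean over sexes (edgeR's quasi-likelihood test, Benjamini-Hochberg), and 0% of all 14400 genes were called in each. At an unadjusted p under 0.05 stood 648 genes in males, 1098 in females and 1271 as a mean over sexes, none of them in the set, and DESeq2 called 7, 37 and 39 genes, none in the set.

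In males the mean level of each gene was lower with fentanyl than with saline, without passing the test. Th was at 1143, 781 and 630 CPM in fentanyl males and at 1984 and 1371 CPM in saline males. Every fentanyl male was below every saline male. Slc6a3 was at 1306, 670 and 845 CPM in fentanyl males, against 1944 and 1381 CPM in saline males, and did not overlap either. For Slc18a2 the levels were 1271, 749 and 728 CPM in fentanyl males and 1735 and 1220 CPM in saline males, with fentanyl replicate 1 between the saline rats. For Ddc they were 357, 214 and 194 CPM in fentanyl males, against 487 and 356 CPM in saline males, with fentanyl replicate 1 just above saline replicate 3. Nr4a2 was at 105, 55.6 and 45.8 CPM in fentanyl males and at 120 and 89.5 CPM in saline males. ENSRNOG00000012283 was at 209, 106 and 125 CPM in fentanyl males and at 257 and 177 CPM in saline males. Both overlapped through fentanyl replicate 1 as well. Thus 2 of 6 genes had all fentanyl males below all saline males, as had 12.5% of all genes tested.

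The male fold changes had errors larger than themselves in the fit of all 10 libraries and a smaller one without the library that stands apart, since the 4 groups share an estimate of the spread. For Th it was -0.98 ± 1.5 (SE) with all libraries and -0.98 ± 0.42 without it, with an unadjusted p of 0.0509 and an adjusted p of 0.88 by edgeR. For Slc6a3 it was -0.83 ± 1.52 with all libraries and -0.83 ± 0.36 without it (adjusted p = 0.88, edgeR). Without it Slc18a2 stood at -0.69 ± 0.35, Ddc at -0.73 ± 0.35, Nr4a2 at -0.60 ± 0.33 and ENSRNOG00000012283 at -0.57 ± 0.34. With 1 saline male left out, replicate 1, the log2 fold change of Th was -0.70, and with fentanyl male replicate 1 left out it was -1.26.

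In VTA females, Th was at 721, 3.72 and 1130 CPM with fentanyl (replicates 1, 2 and 7) and at 1100 and 492 CPM with saline. Slc6a3 was at 853, 2.54 and 963 CPM in fentanyl females, against 1095 and 547 CPM in saline females. The other fentanyl females lay between or above the saline rats for Th and between them for Slc6a3. Slc18a2 was at 865, 100 and 969 CPM in fentanyl females and at 939 and 463 CPM in saline females. Ddc was at 220, 27.0 and 257 CPM with fentanyl and at 285 and 146 CPM with saline, again with replicates 1 and 7 between the saline rats. ENSRNOG00000012283 was at 108, 2.15 and 149 CPM in fentanyl females and at 143 and 88.9 CPM in saline females. Nr4a2 was at 51.8, 6.45 and 68.7 CPM in fentanyl females and at 72.7 and 79.9 CPM in saline females, the 1 gene of 6 whose groups did not overlap, as 11.6% of all genes tested were lower without overlap. It stayed so without replicate 2, where the share over all genes was 18.2%.

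With all libraries the female log2 fold changes were -0.36 ± 1.51 for Th, -0.43 ± 1.53 for Slc6a3, -0.12 ± 0.87 for Slc18a2, -0.36 ± 0.84 for Ddc, -0.42 ± 1.16 for ENSRNOG00000012283 and -0.84 ± 0.80 for Nr4a2. Without replicate 2 the first 5 turned positive: 0.22 ± 0.46 for Th, 0.15 ± 0.40 for Slc6a3, 0.39 ± 0.39 for Slc18a2, 0.15 ± 0.39 for Ddc and 0.15 ± 0.38 for ENSRNOG00000012283. Nr4a2 kept its sign, at -0.33 ± 0.37. None of the 6 was called then either, where 0.077% of 14290 genes were called in females, 0% in males and 0.007% as a mean over sexes. As a mean over sexes the 6 log2 fold changes ran from -0.40 for Slc18a2 to -0.72 for Nr4a2 with all libraries and from -0.15 to -0.47 for the same genes without replicate 2. By edgeR the smallest adjusted p of the set in these 3 contrasts without replicate 2 was 0.608, for Nr4a2 as a mean over sexes, at a log2 fold change of -0.47 ± 0.25.

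**Figure D4:**
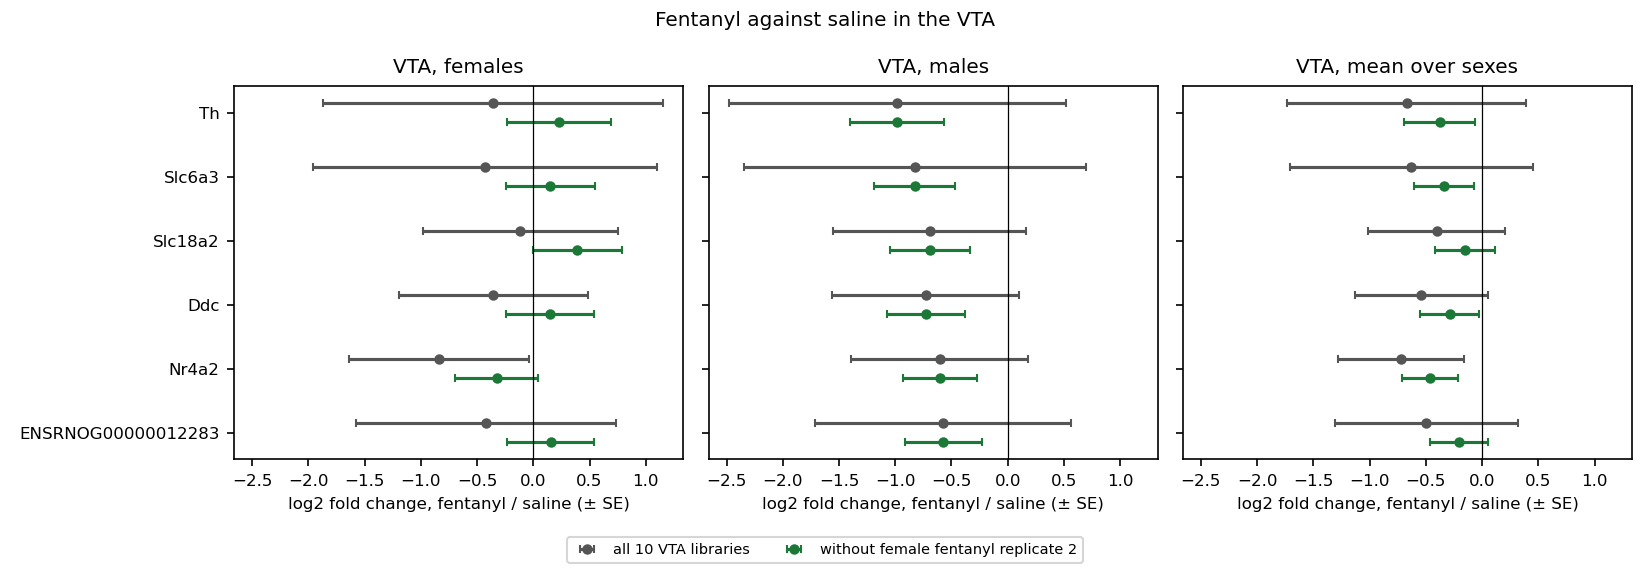
Log2 fold change of fentanyl over saline in VTA females, VTA males and as their mean, with bars of 1 SE, for all 10 libraries (grey) and without female fentanyl replicate 2 (green). In males the 6 points lie between -0.98 and -0.57 in both fits, whereas in females 5 of the 6 lie below 0 with all libraries and above it without that library.

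The mitochondrial share of counts moved with treatment in the VTA: it was 21.3% to 26.9% in fentanyl libraries and 17.6% to 21.0% in saline libraries, without overlap. With the mitochondrial features left out, the log2 fold change of Th as a mean over sexes was -0.66, against -0.67 with them. The call of the set depended on the filter on low counts. With no filter and all 10 libraries, all 6 genes passed as a mean over sexes, as did 1.97% of 25332 genes, with adjusted p of 1.36e-06 for Th to 0.0219 for Slc18a2 (edgeR). In males 4 passed, where 0.45% of all genes did, in females only Nr4a2, where 1.65% did, and between females and males all 6, where 0.643% did. For the effect in the VTA minus that in the NAc 1 passed, Slc18a2, where 0.553% of all genes did. The SE of Th as a mean over sexes was then 0.11 on the log2 scale, where it was 1.06 with the filter. With no filter and without female fentanyl replicate 2, a setting added after these values were seen, none of the 6 passed in these VTA contrasts. Over all genes 0.9% passed then as a mean over sexes, 0.207% in males, 0.57% in females and 0.215% between females and males, and the adjusted p of Th as a mean over sexes was 0.969 (edgeR).

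Whether the fentanyl effect differed between the sexes was tested as the female effect minus the male effect. It called 0 of the 6 genes and 0% of all genes (edgeR), with 476 genes at an unadjusted p under 0.05 and 1 called by DESeq2. The difference for Th was 0.62 ± 2.15 on the log2 scale with all libraries and 1.21 ± 0.63 without female fentanyl replicate 2 (unadjusted p = 0.0953, edgeR). For Slc18a2 it was 0.58 ± 1.23 with all libraries and 1.09 ± 0.53 without that library.

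As a mean over treatments, the levels of the set in the VTA were lower in females than in males, a difference that did not pass the test. Th averaged 689 ± 467 CPM in females and 1182 ± 535 CPM in males (SD, n = 5 each), and 861 ± 309 CPM in the 4 other females. By treatment and without female fentanyl replicate 2, Th averaged 926 CPM in fentanyl females (n = 2) and 851 CPM in fentanyl males (n = 3), and 796 CPM in saline females and 1678 CPM in saline males (n = 2 each). For Slc18a2 the means were 917 CPM in fentanyl females and 916 CPM in fentanyl males, and 701 CPM in saline females and 1478 CPM in saline males. The sexes thus lay apart in the saline rats and not in the fentanyl rats in these means; the test of that difference is the female effect minus the male effect given above, which was not called. Log2 fold changes of females over males, as a mean over treatments, were -0.57 for Nr4a2 to -0.82 for Slc6a3 and ENSRNOG00000012283 with all libraries. Without female fentanyl replicate 2 they were -0.32 ± 0.25 for Nr4a2 to -0.54 ± 0.26 for ENSRNOG00000012283. None of the 6 was called in either fit (edgeR), against 0.0764% of all genes with all libraries and 0.084% without that library. Brains of each sex were sliced in a matrix of their own, so sex and the slicing cannot be told apart.

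In the NAc the set was sparse and none of its members passed a test. ENSRNOG00000012283 had 8 counts in all, 0 counts in 10 of 14 libraries, and did not pass the filter on low counts. A count of 0 allows up to 3 counts, or 0.587 to 0.905 CPM in those libraries, for counting error only. Th had 1 to 20 counts per library, Slc6a3 0 to 18, Nr4a2 3 to 21, Ddc 10 to 42 and Slc18a2 102 to 156. The make-up of the set also differed: for each Th count there were 14.8 counts of Slc18a2 in the NAc (95% counting interval 12.3 to 17.9) and 0.947 in the 9 VTA libraries (0.936 to 0.959). For Slc6a3 the ratio to Th of the summed counts was 0.702 in the NAc (0.527 to 0.930) and 1.02 in the 9 VTA libraries (1.01 to 1.03). These intervals leave out the spread between rats, and no difference is read from this pair. In the NAc, male saline replicate 4 held 10 counts of each gene and female saline replicate 1 held 13 of each. Female fentanyl replicate 7 held 0 of Slc6a3 and 9 of Th, and male fentanyl replicate 7 held 8 and 2. VTA replicate 2 of the fentanyl females, at 26.9 counts of Slc18a2 per Th count (17.1 to 45.1), lay nearer to the NAc than to the other VTA libraries. For Ddc and ENSRNOG00000012283 its ratios to Th lay above those of the summed NAc counts. Ddc had 7.26 (4.48 to 12.4) there and 3.10 in the NAc (2.53 to 3.83). ENSRNOG00000012283 had 0.579 (0.249 to 1.28) there and 0.0645 in the NAc (0.0272 to 0.131). Single NAc libraries varied widely, so its Ddc ratio was not outside their range. Male fentanyl replicate 1 of the NAc held 22 counts of Ddc and 1 of Th, and replicate 7 held 38 and 2. For Slc6a3 and Nr4a2, at 0.684 and 1.74, the intervals overlapped those of the NAc.

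Of the 5 genes tested in the NAc, none was called for fentanyl against saline (edgeR) as a mean over sexes, where 7.51% of all 13248 genes were, in females, where 13.5% were, or in males, where 0% were. Among NAc males 850 genes lay under 0.05 before adjustment, and 6 were called by DESeq2. Slc18a2 had the tightest estimate: it averaged 34.6 ± 5.01 CPM in fentanyl rats (n = 8) and 32.3 ± 3.60 CPM in saline rats (SD, n = 6), a log2 fold change of 0.11 ± 0.11. Th averaged 1.90 ± 1.14 CPM in fentanyl rats and 2.54 ± 1.13 CPM in saline rats, with a log2 fold change of -0.44 ± 0.38. Its lowest, median and highest levels were 0.284, 2.06 and 3.25 CPM with fentanyl and 0.603, 2.53 and 3.92 CPM with saline, so the groups overlapped. Slc6a3 stood at -0.72 ± 0.65, Ddc at 0.14 ± 0.22 and Nr4a2 at -0.25 ± 0.34. The female effect minus the male effect called 0 of the 5, where 0.77% of all genes were called.

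Between the sexes, Th in the NAc averaged 2.87 ± 0.851 CPM in females and 1.47 ± 0.972 CPM in males (SD, n = 7 each), the opposite direction to the VTA. The log2 fold change of females over males was 0.92 ± 0.38, with an unadjusted p of 0.0238 and an adjusted p of 0.938 (edgeR), so it did not pass. None of the 5 genes was called, against 0.0906% of all genes. Within the 10 rats with both regions, the fentanyl effect in the VTA minus that in the NAc called 0 of the 6 and 0% of all genes, with 840 at an unadjusted p under 0.05 and 1 called by DESeq2. For Th the difference was -0.98 ± 1.72 on the log2 scale. Without the rat of VTA female fentanyl replicate 2 it was -0.38 ± 0.64, and 0 of the 6 and 0% of 14672 genes were called (edgeR), with 769 at an unadjusted p under 0.05.

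The genes most like the set were sought by the correlation, over the 10 VTA libraries, of log2 CPM with the mean standardised level of the 6 genes, among 10809 genes of at least 5 CPM. ENSRNOG00000014751 (chromosome 4, 150202058 to 150244372 in the tables) came first at r = 0.998. It averaged 528 ± 133 CPM in the 9 VTA libraries and 6.53 ± 4.69 CPM in the NAc (SD), with 55.7 CPM in VTA replicate 2 of the fentanyl females. ENSRNOG00000026091 (chromosome 14, 37764839 to 37770059) followed at r = 0.997, with 124 ± 51.6 CPM in the 9 VTA libraries and 11.7 ± 1.89 CPM in the NAc. ENSRNOG00000012448 came next at r = 0.995 and ranked 3 in the difference between regions, between Slc6a3 and Th. It lies on chromosome 16 at 68875709 to 68913628, 8990 bases from ENSRNOG00000012283 (68860018 to 68866718), and is the feature closest to it. It averaged 227 ± 92.1 CPM in the 9 VTA libraries and 0.489 ± 0.400 CPM in the NAc. Without VTA replicate 2 of the fentanyl females, r over the 9 libraries was 0.983 for ENSRNOG00000014751 (rank 3), 0.983 for ENSRNOG00000026091 (rank 2) and 0.972 for ENSRNOG00000012448, which then ranked 9 and so left the 8 highest. ENSRNOG00000016388 was then first, at r = 0.987. Over all 10 libraries, not all of the 8 highest were higher in the VTA than in the NAc. ENSRNOG00000007014 (rank 4, r = 0.994) had a log2 difference of VTA over NAc of -2.35. ENSRNOG00000006426 (rank 5, r = 0.992) stood at 0.12 and ENSRNOG00000008428 (rank 8, r = 0.988) at -0.78. Ranks 6 and 7, ENSRNOG00000009372 and ENSRNOG00000048672, stood at 4.35 and 7.49. With all libraries 151 genes had r above 0.9, and 50 had without the library that stands apart. Of the 8 highest 3 were shared: ENSRNOG00000014751, ENSRNOG00000026091 and ENSRNOG00000008428.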

How the data were processed

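Each library has a deposited table of counts by Ensembl gene ID, not normalized by the authors, who also give the exon length of each gene in bases. Per the labels' protocols, RNA was column-purified, ribosomal RNA was depleted and paired ends were sequenced. Per the submitters' processing notes, featureCounts, STAR 2.5.2b, DESeq2, Trimmomatic 0.36 and Subread 1.5.2 belong to the processing, without a stated role. The build, the annotation, the use of strand and how multiply mapped reads were counted are not stated in these sources.

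The 6 genes and the comparisons were chosen with earlier results of these data known. Each region was fitted once over all its genes with edgeR 4.0.16 (limma 3.58.1, R 4.3.3): TMM scaling, filterByExpr, robust dispersion, and the two-sided quasi-likelihood F test over 4 groups of sex and treatment with no block. P-values were adjusted by Benjamini-Hochberg over all genes tested and called under 0.05. Standard errors were taken from the F statistic. Log2 CPM used a prior count of 2. Named genes other than the 6 were the 8 with the highest correlation with the set over all VTA libraries, of which 3 are described at more length. The gene that came first without the library that stands apart is named as well. P-values measure the spread between rats. Counting intervals are exact at 95%, and with the floor of 3 counts they cover counting error only.

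Alternatives were DESeq2 1.42.0, size factors by median of ratios, no low-count filter, no mitochondrial features, a block for the replicate number, and leaving out each library. On simulated counts of 14400 genes the VTA fit recovered 99% of 100 genes changed by 1 on the log2 scale. Of 100 genes changed by 2 it recovered 100%, and 7 false calls were made. These shares do not carry over to the dopamine genes, whose SEs with all VTA libraries, given above, were of the size of such changes. Whether changes of that size in the dopamine genes would have been called was not tested. The 26 pairs of libraries within a group differed by at least 2.61 times sampling noise (chi-square per degree of freedom), so none were copies. Other genes of the dopamine pathway and marker lists of other cell types were not analysed here, since the tables used pair no symbol with the IDs.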

Additional observations from a re-analysis of the deposited data

Results flagged for a closer look

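VTA replicate 2 of the fentanyl females lay far below the other 9 VTA libraries in all 6 genes. A gap was set against the whole range of the group (Dixon's test at 95%, critical value 0.466 for 10 libraries, here the 10 VTA libraries of all 4 groups together). On the log2 CPM scale with its prior count, Th stood at 2.05 in this library, and the gap to the next library was 0.774 of the range. Slc6a3 stood at 1.57 (0.804 of the range), ENSRNOG00000012283 at 1.36 (0.770), Nr4a2 at 2.78 (0.666), Ddc at 4.78 (0.582) and Slc18a2 at 6.65 (0.536).

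In the NAc, fentanyl male replicate 7 had a log2 CPM of -0.56 for ENSRNOG00000012283, from 1 count where the other 3 fentanyl males had 0. Of 18 groups of libraries tested, 7 were marked in this way, and chance alone marks about 1 in 20. The 6 marks in the VTA come from 1 library.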

How the results depend on the processing

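Of 605 recomputed log2 fold changes of the 6 genes between groups, 546 kept direction and side of the threshold, 17 moved past it and 42 changed sign. The 17 came with no low-count filter, which called 6 of the genes as a mean over sexes of the VTA, 4 in VTA males, 1 in VTA females and 6 between the sexes of the VTA, where 0 were called with the filter. Beside these, it called 1 for the effect in the VTA minus that in the NAc, against 0 with the filter. Without VTA replicate 2 of the fentanyl females, a setting added after seeing the data, no filter called 0 of the 6 in each VTA contrast. The cause was not tested.

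The VTA female fold changes turned positive without fentanyl replicate 2 with no filter (Th 0.22, Slc6a3 0.14, Slc18a2 0.38, Ddc 0.14, ENSRNOG00000012283 0.15) and with DESeq2 (0.23, 0.16, 0.40, 0.16 and 0.16). With 1 library left out they ran from -1.14 to 0.35 for Th, -0.94 to 0.16 for Slc6a3, -0.54 to 0.49 for Slc18a2, -0.81 to 0.22 for Ddc and -1.08 to 0.15 for ENSRNOG00000012283; the fits without saline replicate 1 also turned Th, Slc6a3, Slc18a2 and Ddc positive. The female effect minus the male effect for Nr4a2 was 0.28 without fentanyl replicate 2 and no filter and 0.27 with DESeq2. With 1 library left out this difference ran from -0.16 to 1.33 for Th, -0.12 to 0.99 for Slc6a3, -0.083 to 0.94 for Ddc, -0.80 to 0.28 for Nr4a2 and -0.51 to 0.73 for ENSRNOG00000012283. In the NAc, Slc6a3 ran from -1.17 to 0.17 and Nr4a2 from -0.44 to 0.030 as a mean over sexes, positive without male saline replicate 4. Where a group was left with 1 library, it was assumed to vary like the others.

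Residuals of same-numbered libraries of different groups had a mean r of -0.0232 in the NAc (12 pairs) and 0.0070 in the VTA (10 pairs). For other numbers it was 0.0046 and -0.0028. Residuals from a group mean cancel within the group, which draws such means together, so they cannot tell whether replicate numbers pair the libraries. With a replicate block none of the 6 was called, and the female effect minus the male effect in the VTA was -1.56 for Th, -1.80 for Slc6a3, -0.60 for Slc18a2, -0.74 for Ddc and -1.60 for ENSRNOG00000012283, while the NAc mean over sexes was 0.011 for Th and 0.030 for Slc6a3. Over all genes, counts called as a mean over sexes of the VTA were 0 in the fit reported, 39 by DESeq2 and 499 with no filter. In NAc females they were 1788 in the fit reported, 2072 with no filter and 755 to 2018 with 1 library left out, and as a mean over sexes of the NAc 995, 341 with the replicate block and 315 to 1299 with 1 library left out. In the NAc, Th, Slc6a3 and Nr4a2 had at most 21 counts per library, which limits their precision.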
